A study of Mus musculus with 32 samples.

Results

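The R8 congenic and its background strain B6 (C57BL/6J) were compared by their whole-brain RNA, with 10 arrays labelled R8 and 10 labelled B6 out of 32 arrays in the series. Members were taken by strain label alone. R8 mice carry a short piece of distal chromosome 1 from D2 (DBA/2J), about 1.1 Mb by the labels, bred onto inbred B6. By the study's methods the D2 piece spans at least 170.9 to 172.13 Mb and at most 170.4 to 172.14 Mb (GRCm38). B6 mice carry the B6 alleles throughout. All 20 animals were adult naïve males that had received no alcohol or other treatment, and each array holds total RNA from the brain of a single animal. R8 is 1 congenic line, bred in the study's own colony and housed in the same room as the background strain, so an unlinked difference that had become fixed in the line cannot be told apart from an effect of the D2 piece. The comparison asks how this piece, which holds a locus for the severity of alcohol withdrawal, bears on brain expression before any alcohol is given.

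A congenic strain places a donor segment in an otherwise uniform genome. Genes inside the segment may differ in expression because their own regulatory or transcribed sequence differs, which is called a cis difference, while genes elsewhere lie on the B6 background that both strains share. Distal mouse chromosome 1 is gene dense, and this stretch holds Fc receptor genes of immune cells, enzymes and carriers of mitochondria, and parts of the secretory pathway.

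The measured value is the bead signal of each array probe, corrected for background, normalized by quantiles over the 20 arrays and given on the log2 scale with an offset of 16. Every difference below is R8 minus B6 on that scale, so a positive value means a higher level in R8, and it is followed by its standard error (SE) and a p-value from limma, two-sided, with n = 10 per strain. A probe counted as called when its Benjamini-Hochberg adjusted p over all 11665 tested probes was under 0.05. Gene lists are set against the 8222 named genes tested outside the segment. Of these, 48.7% had a positive difference, and at an unadjusted p under 0.05, 2.57% were higher and 1.98% lower. The median signal before normalization ranged from 380.2 to 566.3 in R8 arrays and from 382.8 to 578.5 in B6 arrays, and 10944 to 12283 probes per R8 array and 11223 to 12252 per B6 array were above background at a detection p under 0.01. Of 15 defining markers of neurons, glia, vessels and choroid plexus, 11 had a tested probe and 10 were detected on all 20 arrays, so the labelled tissue holds its main cell types. Each animal has 1 array, and precision is set by the number of arrays.

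The array probes of the 9 called genes are shown first, because each difference in the segment is a difference in hybridization to 1 such oligonucleotide. The opening 30 of the 50 bases are given, 5′ to 3′, with no part in capitals.
Fcgr3: ccacacagccttcctttgaaagcaacttac
Sdhc: tgtcctgctcagctagagggagataaagag
Fcer1g: cagaacagacgtgcttggctgcattctttt
Adamts4: atgctctttttggagtcagacaaatgtggg
B4galt3: atggttcctaagaagctgtctggtggagga
Ppox: cagctatgcaattcctgacggcccagaggt
Ufc1: tccttggctggcagtggaagtccccgatct
Vangl2: tgtacccagtctcccctcttcctcagtttt
Copa: ccactttccccagccacgcgagttgttaac
All 9 genes lie on chromosome 1. The sequence of Fcer1g was decoded from a probe identifier that spells the oligonucleotide, and for 10 of 10 other genes of the segment the decoded sequence was the same as the listed one. The D2 sequence under the probes was not used here, and whether it matches each probe was not tested.

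Within the segment, the 9 called genes comprised 4 that were higher in R8, namely Fcgr3, Sdhc, Adamts4 and B4galt3, and 5 that were lower, namely Fcer1g, Ppox, Ufc1, Vangl2 and Copa. RefSeq places 49 protein-coding genes in the largest extent of the segment, of which 37 had a probe under their name and 20 passed the detection filter. The 9 calls among these 20 tested genes are 45% of them, against 0.109% of all 8242 named genes tested, and in 8 of the 9 every R8 array lay on one side of every B6 array, which held for 0.0686% of all probes. Over all probes 9 were called, which is 0.0772%, and 121 passed an unadjusted p of 0.01, which is 1.04% (0.609% higher and 0.429% lower). At an unadjusted p under 0.01, the threshold used by the study, 14 of the 20 genes passed (5 higher and 9 lower), against 1.08% of all named genes (0.619% higher and 0.461% lower). The median size of the difference was 0.31 in the segment and 0.04 in the 8222 genes outside it.

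**Figure D1:**
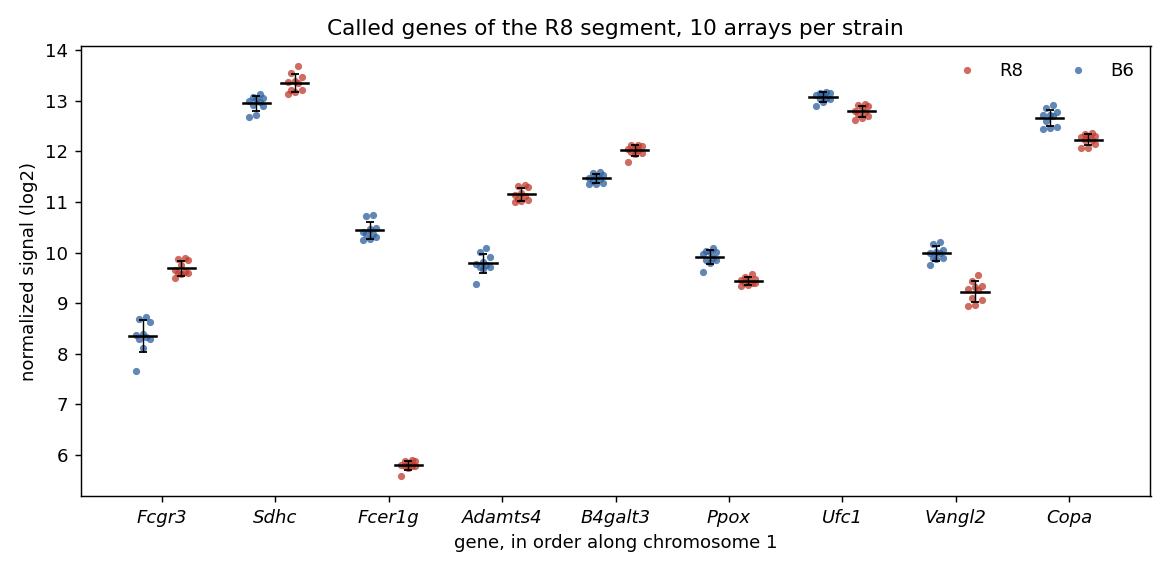
Normalized signal (log2) of the 9 called genes, in order along the chromosome, for each of 10 R8 and 10 B6 arrays. Points are arrays, lines are means and bars are SD. The strains do not overlap in any of these genes except Ufc1, and levels are comparable between strains but not between genes.

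Fcer1g, with the largest difference of the comparison, and Fcgr3 belong to the Fc receptor system, through which microglia and other myeloid cells sense bound immunoglobulin. Fcer1g (171229572 to 171234349) encodes the common gamma chain, the signalling subunit that several Fc receptors share. Its level was 5.58, 5.79 and 5.89 (lowest, median and highest) in R8 and 10.24, 10.39 and 10.74 in B6. It was above background on 0 of 10 R8 arrays and on 10 of 10 B6 arrays, so R8 gives only an upper limit. Set against the lowest signal that was still well above background on each R8 array, the R8 level was at least 5.45-fold lower than that of B6. The limma call (adjusted p = 1.73e-24) belongs to the difference of the measured values, -4.65, and the limit itself was not tested. Fcgr3 (171051169 to 171065915) specifies a low-affinity immunoglobulin G receptor that signals through that gamma chain. Its level was 9.50, 9.63 and 9.88 in R8 and 7.66, 8.35 and 8.72 in B6. All R8 arrays lay above all B6 arrays, and the difference was 1.34 (SE 0.10, adjusted p = 1.35e-08), or 2.53-fold. Fcgr3 was above background on 9 of 10 B6 arrays, so its size rests partly on levels near background. Over 12 settings the difference ran from 0.83 to 1.35, and it was called in 12. Receptor and signalling chain therefore differed in opposite directions between the strains.

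Further Fc receptor genes of the segment, Fcgr2b and Fcgr4, were above background on 0 arrays of either strain, and Fcrla likewise. Outside the segment, 5 genes that act downstream of or beside Fc receptors, such as kinases and adaptors, were tested. Their differences ran from -0.14 to 0.06 with a median of 0.03, and 0 of the 5 had an unadjusted p under 0.05. The wider list of microglia markers, 22 tested genes, had 8 positive differences and a median of -0.05. At an unadjusted p under 0.05, 2 were higher (9.09%, against 2.57% of genes outside the segment) and 1 was lower (4.55%, against 1.98%). They were Fcrls (0.19, p = 0.0255), a microglial Fc receptor-like gene, Cd83 (0.16, p = 0.0345), an activation marker, and Ctss (-0.19, p = 0.0433), a lysosomal protease. The 10 R8 arrays spanned -0.17 to 0.16 in the mean deviation of this list and the B6 arrays -0.08 to 0.16, so the marker level of microglia overlapped between strains while Fcer1g and Fcgr3 did not.

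Adamts4 (171250129 to 171262267) encodes a secreted protease that cuts aggrecan-type proteoglycans of the extracellular matrix and, in brain, is made largely by oligodendrocytes. Its level was 10.99, 11.13 and 11.34 in R8 and 9.38, 9.77 and 10.08 in B6. The strains did not overlap, and the difference of 1.37 (SE 0.072, adjusted p = 1.14e-11) was a 2.58-fold higher signal in R8. The study's quantitative PCR on other R8 and B6 animals found Adamts4 to differ in the opposite direction. For Sdhc, Ppox, Ufc1, Copa and Ncstn that method bore out the array difference, by the study's account. Of the proteoglycans and other matrix genes related to it, 10 were tested, and 0 had an unadjusted p under 0.05 (range -0.10 to 0.09).

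B4galt3 (171270328 to 171276895) encodes a Golgi enzyme that adds galactose to sugar chains of glycoproteins. Its probe with the highest signal read 11.78, 12.04 and 12.13 in R8 and 11.36, 11.46 and 11.59 in B6, without overlap. The difference was 0.56 (SE 0.047, adjusted p = 1.10e-07). The other B4galt3 probe read 9.85, 9.96 and 10.15 in R8 and 9.66, 9.92 and 10.07 in B6, which overlap, and its difference of 0.08 did not pass (p = 0.218). The 2 probes of this gene thus disagree, and the call belongs to 1 of them. None of 16 tested genes for other galactosyltransferases and for lactosamine synthesis had an unadjusted p under 0.05 by limma (0 of 16).

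Genes of mitochondrial metabolism differed in both directions. Sdhc (171129157 to 171150640) encodes a membrane subunit of complex II, succinate dehydrogenase, which links the citric acid cycle to the respiratory chain. Its level was 13.14, 13.36 and 13.68 in R8 and 12.68, 12.99 and 13.14 in B6. The lowest R8 array lay just above the highest B6 array, and the difference was 0.40 (SE 0.071, adjusted p = 0.0107). This call was lost with a term for blocks of 8 running sample numbers (0.36, adjusted p = 0.319). Ppox (171276991 to 171281193) encodes protoporphyrinogen oxidase, which carries out the penultimate step of heme synthesis in mitochondria. Its level was 9.34, 9.43 and 9.58 in R8 and 9.62, 9.93 and 10.09 in B6, without overlap. The difference was -0.47 (SE 0.052, adjusted p = 1.19e-05), so that B6 was 1.39-fold higher.

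Partners of these enzymes outside the segment were read next. Other subunits and assembly factors of complex II numbered 6 tested genes, with differences from -0.09 to 0.04 and 0 past an unadjusted p of 0.05 by the probe with the highest signal. The probes of Sdhb, the iron-sulfur subunit, disagreed, since 1 of its other probes had -0.32 (SE 0.098, p = 0.00382), with 5 R8 arrays below every B6 array, and another -0.02 (p = 0.779). Of 16 tested genes of heme synthesis and breakdown, 6 had positive differences. At an unadjusted p under 0.05, 1 was lower (6.25%, against 1.98% of genes outside the segment). It was Slc48a1, a transporter that carries heme out of lysosomes, with -0.13 (SE 0.042, p = 0.00422).

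A group of genes for ubiquitin-like modification stands next to Ppox. Ufc1 (171288564 to 171295002) encodes the conjugating enzyme of UFM1, a ubiquitin-like protein tied to the endoplasmic reticulum. Its level was 12.62, 12.79 and 12.94 in R8 and 12.89, 13.09 and 13.18 in B6. The strains overlapped at their edges, with 7 of 10 R8 arrays below the lowest B6 array, and the difference of -0.29 was called (SE 0.049, adjusted p = 0.00972). Usp21 (171281949 to 171287961), a deubiquitinase that acts on histone H2A among other targets, read 8.64, 8.88 and 9.21 in R8 and 9.02, 9.29 and 9.46 in B6. It also had 7 R8 arrays below every B6 array, and its difference of -0.38 lay just past the threshold (SE 0.075, adjusted p = 0.0510). Over 13 settings, this one included, it was called in 7. Among the called genes, Sdhc (adjusted p = 0.0107) and Ufc1 lay nearest the adjusted threshold, and Usp21 lay just outside it. Of the remaining UFM1 pathway, 5 genes were tested, with differences from -0.05 to 0.09 and 0 past an unadjusted p of 0.05.

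Vangl2 (172000960 to 172027318) encodes a membrane protein of planar cell polarity, the system that orients cells within a sheet and guides axon growth. Its level was 8.95, 9.27 and 9.55 in R8 and 9.75, 9.99 and 10.20 in B6. The strains did not overlap, and the difference was -0.75 (SE 0.075, adjusted p = 1.78e-06), which makes B6 1.69-fold higher. Of 10 tested genes of the same system, 8 lay above 0 (median 0.06), and 7 R8 arrays had a list mean above every B6 array. Smurf2, a ubiquitin ligase that targets polarity proteins, alone passed an unadjusted p of 0.05, with 0.24 (SE 0.090, p = 0.0127). That is 10% of the list higher, against 2.57% of genes outside the segment.

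Copa and Ncstn stand head to head at the distal end of the segment. Copa (172082529 to 172122332, forward strand) encodes the alpha subunit of the coatomer, the coat of vesicles that return from the Golgi to the endoplasmic reticulum. Ncstn (172066013 to 172082789, reverse strand) encodes nicastrin, a subunit of the gamma-secretase that cuts Notch and the amyloid precursor protein. The 2 RefSeq gene models overlap by 261 bases at their starts. The 250 bases before the start that the RefSeq promoter table (GRCm38.p6) uses for each gene are printed because both genes had lower signals in R8, at chr1:172082279-172082528 on the forward strand for Copa and chr1:172082750-172082999 on the reverse strand for Ncstn. The Ncstn window holds 40 bases of the longest gene model, so its start is not the outermost one.
Copa: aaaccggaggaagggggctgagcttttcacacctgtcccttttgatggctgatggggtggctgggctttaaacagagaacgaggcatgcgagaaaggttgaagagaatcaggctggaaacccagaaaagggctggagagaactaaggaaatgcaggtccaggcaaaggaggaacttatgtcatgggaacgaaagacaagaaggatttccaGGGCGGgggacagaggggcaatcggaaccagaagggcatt
Ncstn: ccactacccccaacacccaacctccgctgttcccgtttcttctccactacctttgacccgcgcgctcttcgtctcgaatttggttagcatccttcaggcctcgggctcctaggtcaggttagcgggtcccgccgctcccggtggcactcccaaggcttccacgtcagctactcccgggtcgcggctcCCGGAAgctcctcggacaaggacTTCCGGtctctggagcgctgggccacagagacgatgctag
Capitals mark matches, on either strand, to any of the motifs searched, namely the CCAAT box, the GC box GGGCGG, the ETS core CCGGAA, the E-box CACGTG and the TATA box TATAAA, and the matches do not overlap each other. Copa had 1 match to GGGCGG, which 32.7% of 32851 windows of this length hold, and Ncstn had 2 matches to CCGGAA, held by 12% of windows. The matches are a description of the B6 reference sequence.

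Copa read 12.07, 12.27 and 12.36 in R8 and 12.45, 12.71 and 12.91 in B6. The strains did not overlap, and the difference of -0.43 was called (SE 0.061, adjusted p = 7.09e-04). Ncstn read 12.17, 12.33 and 12.53 in R8 and 12.28, 12.66 and 12.72 in B6, with 4 R8 arrays below the lowest B6 array. Its differences by 2 probes were -0.26 (SE 0.060, p = 2.59e-04) and -0.22 (SE 0.052, p = 2.99e-04), and neither passed the adjusted threshold (adjusted p = 0.183 and 0.184). Other coatomer subunits and their partners outside the segment, 20 tested genes, had 11 positive differences and a median of 0.03. The cargo receptors Tmed10 (0.10, p = 0.0449) and Tmed2 (-0.11, p = 0.0398) passed an unadjusted p of 0.05 in opposite directions. That is 5% higher, against 2.57% of genes outside the segment, and 5% lower, against 1.98%. Among 20 tested genes of gamma-secretase, its substrates and amyloid processing, 9 differences were positive. Of these 20, 2 were higher at an unadjusted p under 0.05 (10%, against 2.57%) and 0 lower. Dll1, a Notch ligand, had 0.23 (SE 0.077, p = 0.00689), and Tmed10, which also binds gamma-secretase, was the other.

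The remaining tested genes of the segment had smaller differences. Nit1, an amidase that clears deaminated glutathione, had -0.16 (SE 0.045, p = 0.0022) and -0.27 (SE 0.092, p = 0.00751) by its 2 probes. The study's quantitative PCR found no evidence of a difference in Nit1. Pfdn2, a subunit of the prefoldin chaperone for actin and tubulin, had 0.20 (SE 0.070, p = 0.00769). Nit1 and Pfdn2 gene models overlap by 703 bases. Alyref2, an adaptor of messenger RNA export, had -0.33 (SE 0.109, p = 0.00633). These 3 passed the unadjusted threshold of 0.01 and not the adjusted one.

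For 6 genes of the segment the unadjusted p was 0.01 or more by the probe with the highest signal. They were Nos1ap (-0.06, SE 0.130), an adaptor of neuronal nitric oxide synthase, Olfml2b (-0.07, SE 0.081), a secreted matrix protein, Dedd (0.00, SE 0.052), a death-effector domain protein, Arhgap30 (0.16, SE 0.097), Usf1 (-0.08, SE 0.092), a transcription factor, and Pex19 (0.07, SE 0.045), a chaperone of peroxisomal membrane proteins. The study's quantitative PCR, on other R8 and B6 animals, did find Nos1ap, Pex19 and Usf1 to differ. Nos1ap and Olfml2b start before the smallest extent of the segment, in the stretch where the donor boundary lies. Called genes spanned 1.07 Mb, and uncalled genes such as Dedd and Usf1 lay between called ones. The other 17 named genes, among them the lymphocyte receptors Cd48, Cd84, Ly9, Slamf1, Slamf6 and Slamf7, the apolipoprotein Apoa2 and the nuclear receptor Nr1i3, were above background on 0 arrays of either strain and were not tested. For Apoa2 the study's quantitative PCR found a difference.

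**Figure D2:**
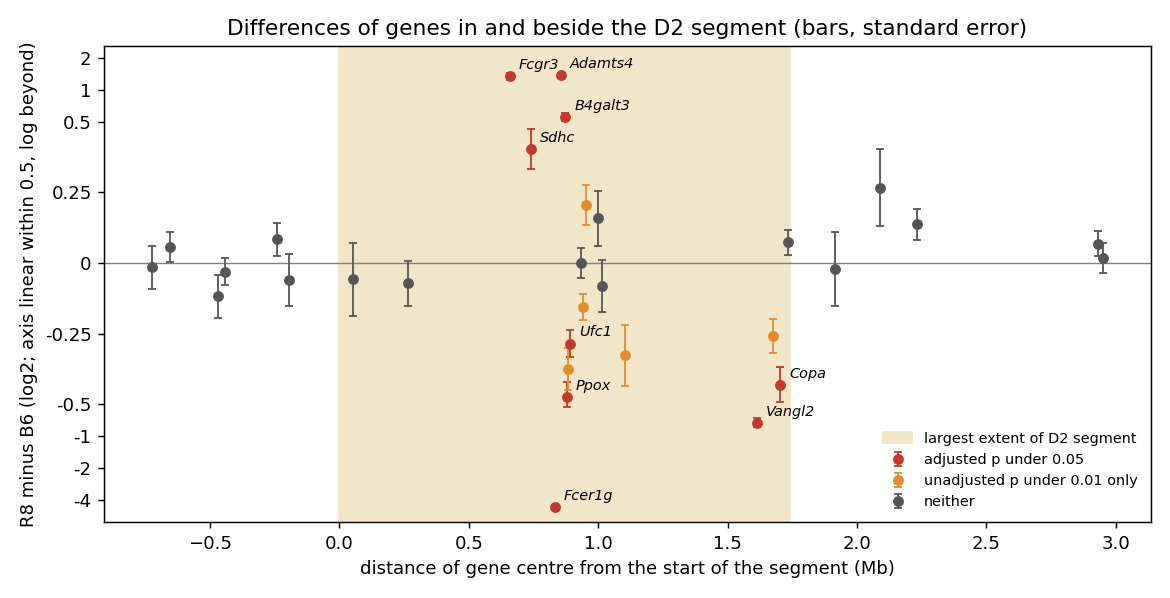
R8 minus B6 difference (log2, with SE) of each tested gene in the segment and within 2 Mb on either side, against the distance of the gene's centre from the segment's start in Mb. The vertical axis is linear between -0.5 and 0.5 and logarithmic beyond, and the shaded band is the largest extent of the D2 segment. Called genes (red) and genes at an unadjusted p under 0.01 only (orange) all lie inside the band, on both sides of 0.

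Genes beside the segment lie outside the largest extent given for the D2 piece. Of 11 tested genes within 2 Mb (6 before and 5 after), 0 passed an unadjusted p of 0.01 by limma, and 1 of 11 passed 0.05, the dual-specificity phosphatase Dusp23 with 0.14 (p = 0.0201). The adhesion gene Igsf9 had the largest difference there, 0.27 (SE 0.136, p = 0.0637). The others ran from -0.12 to 0.08.

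Outside the segment 0 of 8222 named genes passed the adjusted threshold by limma. At an unadjusted p under 0.01 there were 75, or 0.912% (46 higher, 0.559%, and 29 lower, 0.353%), and at 0.05 there were 374, or 4.55% (211 higher, 2.57%, and 163 lower, 1.98%). The median difference over these genes was 0.00, with a 5th percentile of -0.12 and a 95th of 0.12. The 20 genes with the smallest p lay on 12 chromosomes, with 0 on chromosome 1. Of these, 13 were higher and 7 lower, with sizes of 0.19 to 0.48 and adjusted p-values from 0.0724 to 0.622, and in 0 of them did the strains separate completely.

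The gene nearest to separation was Tmem229b, a membrane protein, at 10.56, 10.76 and 11.03 in R8 and 10.46, 10.52 and 10.65 in B6. With 9 of 10 R8 arrays above every B6 array, its difference was 0.24 (SE 0.050, adjusted p = 0.0724). It passed in 1 of 13 settings, with a term for runs of 8 adjacent table columns, which the labels do not name as batches (0.26, adjusted p = 0.0292). It also passed in 1 of 20 fits with a single array left out, that without R8 replicate 4 (0.27, adjusted p = 0.0165). Over those fits its adjusted p ran up to 0.175. Next came Tmem98, Il20rb, Nid1 and Enpp6. Il20rb, a subunit of receptors for interleukins of the interleukin-10 family, had -0.28 (SE 0.064, p = 2.24e-04), and Nid1, a basement membrane protein of vessels, had 0.31 (SE 0.072, p = 2.67e-04). In Nid1 a single B6 array, replicate 10, stood apart from the other B6 arrays at 8.54, and without it the gene passed (0.35, adjusted p = 0.0340). Nid1 passed in only that 1 of 20 such fits, where its adjusted p ran up to 0.419, and in 0 of 13 settings.

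The largest size among the 20 was that of Abca8a, a lipid transporter, with -0.48 (SE 0.118, p = 5.11e-04). Its level was 7.82, 8.43 and 8.94 in R8 and 8.71, 8.87 and 9.18 in B6, and 8 R8 arrays lay below every B6 array. Abca8a was above background on only 7 of 10 R8 arrays, so its size rests partly on background. Marcksl1, an actin-binding substrate of protein kinase C, had 0.24 by its main probe and 0.19 (p = 0.0730) and 0.23 (p = 0.0345) by others. Bbs9, a subunit of the ciliary BBSome, had 0.36 (SE 0.094, p = 9.53e-04). Pdlim2, an adaptor of the cytoskeleton, had 0.24, 0.33 and 0.25 by 3 probes. Insm1, a zinc finger regulator of neuronal progenitors, had -0.24 (p = 0.0016), and the linker histone H1f2 had 0.28 (p = 0.00167). The rest were Glt8d2 (-0.29), 0610010K14Rik (0.26), Cox6b2 (-0.26), Rbm43 (0.24), Ndufaf3 (0.19), an assembly factor of complex I, Kbtbd3 (-0.19), Tmem69 (0.34), Hspa1a (-0.31) and Gpr17 (0.28). Glt8d2 was above background on 8 of 10 R8 arrays and Tmem69 on 4 of 10 B6 arrays.

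Among these genes, Tmem98, Enpp6 and Gpr17 belong to the oligodendrocyte lineage, whose mature cells wrap axons in myelin, and the lineage was therefore read as a group. Of 29 tested genes of myelin and mature oligodendrocytes, 21 lay above 0, and the median difference was 0.12. At an unadjusted p under 0.05, 11 of the 29 were higher (37.9%, against 2.57% of genes outside the segment) and 1 was lower (against 1.98%). None of the 29 passed the adjusted threshold by limma (0 calls). The list was written with the result of Tmem98 known, and without that gene 10 of 28 were higher, with a median of 0.11. The members were measured on the same 20 arrays and are not independent of each other, so the count without Tmem98 is not an independent check. In whole-brain RNA, more cells of a type and more RNA per cell cannot be told apart.

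The members higher at that threshold include the main structural and lipid genes of myelin. Mal, a proteolipid of compact myelin, read 14.08, 14.44 and 14.73 in R8 and 13.92, 14.19 and 14.30 in B6, with a difference of 0.22 (SE 0.075, p = 0.00743) and 0.23 (p = 0.00493) by another probe. Mog, the myelin oligodendrocyte glycoprotein, read 11.62, 12.02 and 12.38 in R8 and 11.61, 11.80 and 12.04 in B6, with 0.21 (SE 0.078, p = 0.0128) and 0.28 (p = 0.00663) by another probe. Cnp, a phosphodiesterase that keeps cytoplasmic channels open in the sheath, read 12.82, 13.19 and 13.53 in R8 and 12.76, 12.98 and 13.35 in B6, with 0.21 (SE 0.080, p = 0.0163) and 0.21 (p = 0.00245) by another probe. In all 3 genes the strains overlapped, with 6, 5 and 3 R8 arrays above the highest B6 array.

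Cldn11, which forms the tight junctions of myelin, had 7 R8 arrays above the highest B6 array and a difference of 0.14 (SE 0.051, p = 0.01). Mag, the adhesion protein that faces the axon, had 6 such arrays and 0.16 (SE 0.061, p = 0.0159). Fa2h and Ugt8a make the hydroxylated galactolipids of myelin and had 0.15 (p = 0.00997) and 0.16 (p = 0.0197). Opalin, a membrane glycoprotein of oligodendrocytes, had 0.17 (p = 0.0174), Tspan2, a tetraspanin of the lineage, had 0.17 (p = 0.0275), and Josd2, a deubiquitinase placed in the list as an oligodendrocyte gene, had 0.17 (p = 0.0209). Tmem98, an inhibitor of the myelin regulator Myrf, had 0.31 (SE 0.069, p = 1.97e-04) with 8 R8 arrays above every B6 array, but 0.05 (p = 0.475) by its other probe. Mobp, another major myelin protein, did not pass by its main probe (0.12, p = 0.171) and had 0.12 (p = 0.109) and 0.36 (p = 0.00301) by others.

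Not every myelin gene shared this direction. Mbp, the myelin basic protein, had 0.00 (SE 0.032, p = 0.964), and its other probes gave -0.07 (p = 0.228) and 0.10 (p = 0.357). Its main probe ranked between 1 and 29 of 11665 on the arrays, with values of 15.99 to 16.13 where the highest value of any array was 16.13. Evi2a was the member lower at the threshold, with -0.11 (p = 0.0493) and -0.17 (p = 0.0416) by another probe. Apod, Car2, Il33, Efnb3 and Hapln2 had differences between -0.10 and -0.03, and none of these had an unadjusted p under 0.05. Counting all probes of the list, 15 of 42 were higher at an unadjusted p under 0.05, against 2.49% of all probes.

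**Figure D3:**
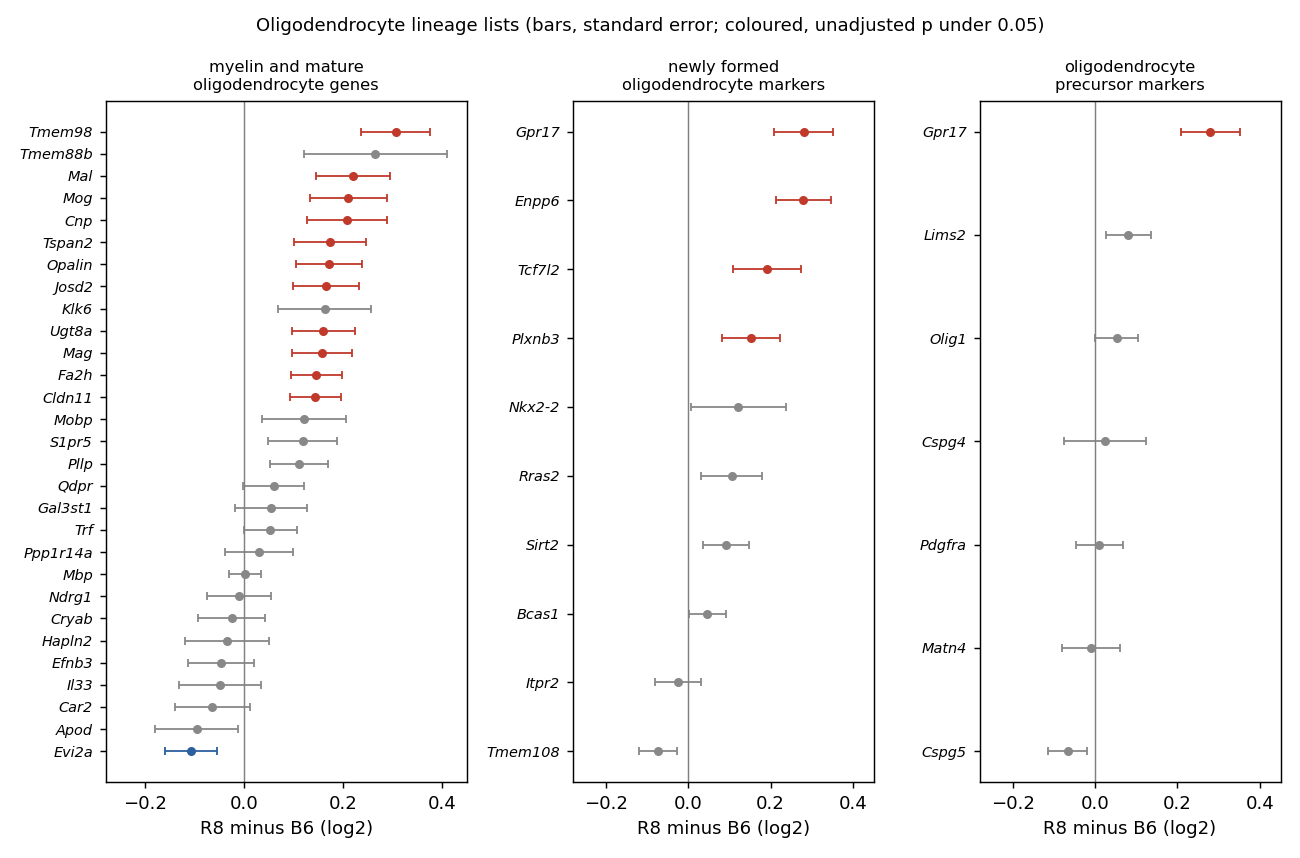
R8 minus B6 difference (log2, with SE) of every tested gene of 3 lists of the oligodendrocyte lineage. Red and blue mark an unadjusted p under 0.05 in the positive and negative direction, and grey marks the rest. The myelin list has 11 red genes of 29, the newly formed list 4 of 10, and the precursor list 1 of 7, Gpr17, which the newly formed list also holds.

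Oligodendrocytes that are just forming express Enpp6, a choline phosphodiesterase, and Gpr17, a receptor that holds the cell before its final step. Enpp6 read 10.77, 10.99 and 11.22 in R8 and 10.55, 10.67 and 10.95 in B6, with a difference of 0.28 (SE 0.066, p = 3.15e-04). Gpr17 read 10.31, 10.76 and 10.98 in R8 and 10.25, 10.44 and 10.56 in B6, with 0.28 (SE 0.072, p = 7.81e-04). In these genes 6 and 7 R8 arrays lay above every B6 array, and the adjusted p-values were 0.184 and 0.396. Gpr17 passed in 1 of 20 fits with a single array left out, that without R8 replicate 10 (0.32, adjusted p = 0.0402). Over those fits its adjusted p ran up to 0.789, and it was called in 0 of 13 settings.

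In the list of newly formed oligodendrocytes, 8 of 10 tested genes lay above 0 (median 0.11), and 4 (40%) were higher at an unadjusted p under 0.05. Besides Enpp6 and Gpr17, whose results were known when the list was written, these were Tcf7l2 (0.19, p = 0.0291), a transcription factor of Wnt signalling needed for differentiation, and Plxnb3 (0.15, p = 0.0413), a semaphorin receptor. Without Enpp6 and Gpr17 the count was 2 of 8 (25%), which comes from the same arrays and is not an independent check. The other probe of Tcf7l2 had 0.06 (p = 0.587). Without R8 replicate 1, 2 or 9 the count of 4 became 2. Markers of the precursor stage had 5 of 7 positive differences and a median of 0.02. Of their 9 probes, 2 were higher at an unadjusted p under 0.05, that of Gpr17 and a further probe of Lims2 (0.22, p = 0.00769), whose main probe had 0.08 (p = 0.148). The gene model of Gpr17 (31942999 to 31949890 on chromosome 18) lies within that of Lims2 (31922293 to 31958620). Pdgfra and Cspg4, which define that stage, had 0.01 (p = 0.850) and 0.02 (p = 0.814).

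Read by array, the mean deviation of the myelin list from its average over the 20 arrays was -0.15, 0.03 and 0.24 (lowest, median and highest) in R8 and -0.13, -0.05 and 0.04 in B6. In R8, 4 arrays lay above every B6 array, but 1, replicate 9, lay below all of them, so the B6 range fell within the R8 range. The newly formed list read -0.04, 0.06 and 0.18 in R8 and -0.20, -0.05 and 0.04 in B6, with all 10 R8 arrays above the B6 median and 7 above the highest B6 array. Within the 4 runs of adjacent table columns, each with both strains, the median difference over the myelin genes ran from -0.01 to 0.23. The median over the newly formed genes ran from 0.04 to 0.22. Over the other processing settings 10 to 14 of the myelin genes and 2 to 4 of the newly formed genes were higher at an unadjusted p under 0.05. The median of the myelin list stayed between 0.08 and 0.13 when each array was left out in turn.

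**Figure D4:**
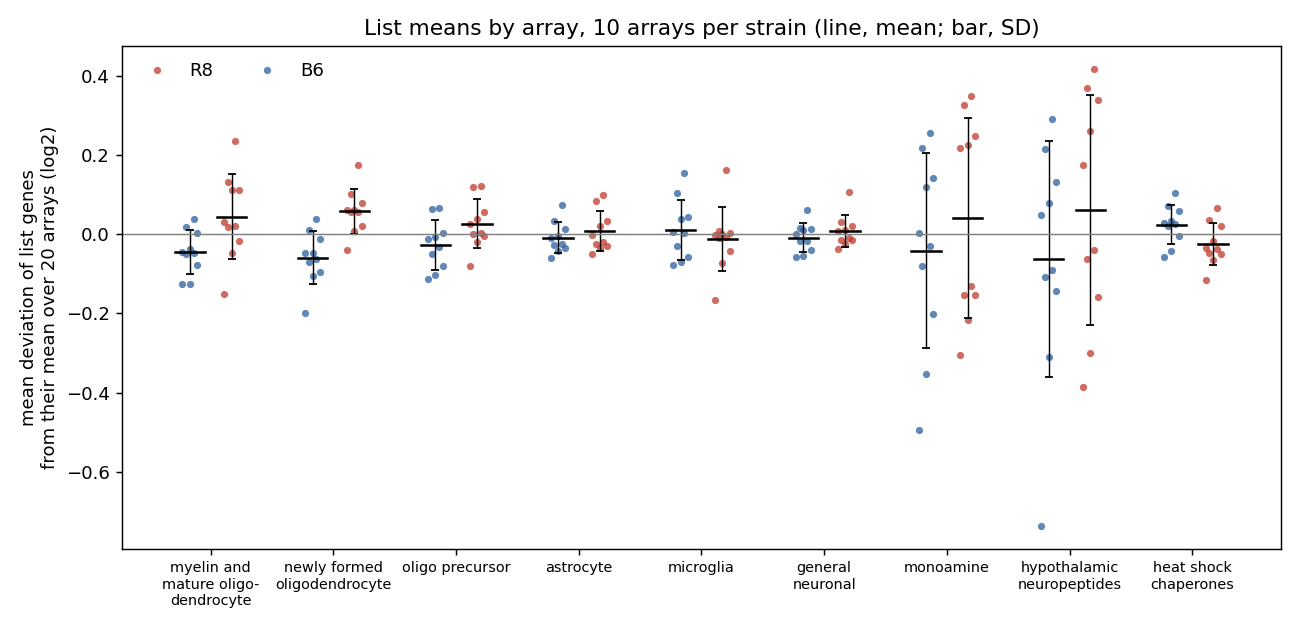
Mean deviation (log2) of the genes of 9 lists from their average over the 20 arrays, for each of 10 R8 (red) and 10 B6 (blue) arrays, with the mean as a line and the SD as a bar. Among these 9 lists the newly formed oligodendrocyte list has 7 R8 arrays above all B6 arrays, whereas monoamine and hypothalamic genes vary widely within both strains.

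Lists for other cells and for brain regions were read beside the oligodendrocyte lists. Astrocyte markers had 0 of 27 and general neuronal markers 0 of 19 genes with an unadjusted p under 0.05, with medians of 0.03 and 0.01. Of 21 markers of endothelial and mural cells, 2 were higher (9.52%, against 2.57%), Nid1 and the collagen Col4a1 (0.11, p = 0.0292). Another 2 were lower (9.52%, against 1.98%), the receptor Flt1 (-0.11, p = 0.0139) and Emcn (-0.11, p = 0.0490). Monoamine genes had 9 of 10 positive differences with a median of 0.09, and hypothalamic neuropeptides had 12 of 12 with a median of 0.10. By limma, 0 genes of either list had an unadjusted p under 0.05, and the arrays of each strain spread far wider than the strains differed. The list mean of neuropeptides ran from -0.39 to 0.42 in R8 and from -0.74 to 0.29 in B6, and that of monoamine genes from -0.31 to 0.35 and from -0.49 to 0.26. R8 replicate 8 was highest in the myelin mean and R8 replicate 9 lowest, and they read 0.34 and -0.30 in the neuropeptide mean. The part of such regional variation in the oligodendrocyte values was not tested.

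Region and synapse genes gave few single differences. Striatal markers had 2 of 16 lower at an unadjusted p under 0.05 (12.5%, against 1.98%). They were Pde10a, a phosphodiesterase of medium spiny neurons (-0.17, p = 0.0240), and Rxrg (-0.14, p = 0.0340), a retinoid receptor. Cerebellar markers had 1 of 13 higher (7.69%, against 2.57%), Slc1a6, the glutamate transporter of Purkinje cells (0.26, p = 0.0220). Gria3, an AMPA receptor subunit, had -0.17 (SE 0.054, p = 0.00377), with 7 R8 arrays below every B6 array. Its other probes had -0.02 (p = 0.837) and -0.08 (p = 0.353). Gria3 was the 1 member of 8 ionotropic glutamate receptor genes past the threshold (12.5% lower, against 1.98%). GABA-A receptor subunits had 0 of 6.

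Heat shock chaperones were among the lists with lower members. Of 20 tested genes, 3 were lower at an unadjusted p under 0.05 (15%, against 1.98%) and 0 were higher. The count was 1 with a term for blocks of 8 running numbers, 2 with median scaling or either replicate block, and 2 to 4 without single arrays. Hspa1a, the inducible Hsp70, read 8.33, 8.60 and 8.74 in R8 and 8.50, 8.87 and 9.31 in B6, and had -0.31 (SE 0.082, p = 0.00106). All 10 R8 arrays lay below the B6 median. Hspb1, the small chaperone Hsp25, had -0.26 (SE 0.096, p = 0.0141), and Dnajb1, the Hsp40 partner of inducible Hsp70, had -0.10 (SE 0.044, p = 0.0394), each with 6 R8 arrays below every B6 array. The median of the list was -0.02. Among the other members, Hspa8 (0.00), Hspd1 (0.04), Hsph1 (-0.001) and Bag3 (0.0006) had differences near 0. Hspe1 (-0.11), Hspa4 (-0.11) and Stip1 (-0.07) lay lower, and none of them had an unadjusted p under 0.05. Hspa8 read 15.93 to 16.12 in R8 and 16.01 to 16.11 in B6, close to the highest value of any array, 16.13. Chaperones of the endoplasmic reticulum had 0 of 16 past the threshold. The study's quantitative PCR found a difference in such a chaperone, Hspa5, which its arrays had not shown.

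Genes of the circadian clock had 3 of 18 lower (16.7%, against 1.98%) and 0 higher at the same threshold. They were Arntl, the core activator Bmal1 (-0.15, SE 0.054, p = 0.01), its partner Clock (-0.09, p = 0.0417) and the repressor Nfil3 (-0.11, p = 0.0382). Npas2, another partner of Arntl, had -0.24 (p = 0.108), and Nr1d1 and Dbp, which Arntl and Clock activate, had 0.13 (p = 0.0785) and 0.09 (p = 0.114). By other probes Nr1d1 had 0.18 (p = 0.0229) and Clock 0.05 (p = 0.615). Without single arrays the count of lower clock genes ran from 1 to 3. Immediate early genes, induced by neuronal activity, had 3 of 16 positive differences and a median of -0.06, with 0 past the threshold.

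Antioxidant genes were read in 2 lists. Of 29 metallothioneins and enzymes of glutathione, 4 (13.8%, against 2.57%) were higher at an unadjusted p under 0.05 and 0 were lower, with a median of 0.01. The count was 2 with either replicate block or a term for running numbers, and 2 to 4 without single arrays. Gpx8, a peroxidase of the endoplasmic reticulum, had 0.22 (SE 0.071, p = 0.00555), Mt2, a metal-binding metallothionein, 0.24 (SE 0.104, p = 0.0314), and the glutathione transferases Gstm4 and Gsta4 0.21 (p = 0.0198) and 0.10 (p = 0.0358). Superoxide dismutases, catalase, peroxiredoxins and thioredoxins had 0 of 18 past the threshold. Of 22 targets of the stress factor ATF4, 2 were higher (9.09%, against 2.57%). They were the amino acid transporter Slc7a5 (0.13, SE 0.045, p = 0.00935) and Shmt2 (0.17, p = 0.0435), an enzyme of mitochondrial folate metabolism. Shmt2 was above background on 4 of 10 B6 arrays. The study's quantitative PCR found Mt2 to differ in the direction of the array. That method also found Mt1, Gclc, Ddit3 and Asns to differ, which the study's arrays had not shown.

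The respiratory chain showed small differences below 0 in several lists. Complex IV had 4 of 14 positive differences and a median of -0.03. At an unadjusted p under 0.05, 2 members were lower (14.3%, against 1.98%). They were Cox6b2 (-0.26, SE 0.071, p = 0.0013), an isoform best known from testis, and Cox7b (-0.22, SE 0.101, p = 0.0399). Complex V had 3 of 16 positive and cytosolic ribosomal proteins 11 of 55, against 48.7% of genes outside the segment. By limma 0 genes of either list passed the threshold, and their medians were -0.01 and -0.03. Complex I had 15 of 32 positive and 1 lower (3.1%, against 1.98%), Ndufa10 (-0.13, SE 0.048, p = 0.0128). By the study's quantitative PCR, Cox6b2 differed in the direction opposite to the array and Ndufa10 in the same direction. That method also found Cox6a2, Ndufb6 and Ndufv1 to differ, which the study's arrays had not shown. Fatty acid oxidation had 18 of 22 positive with a median of 0.02 and 0 past the threshold, but 11 of 22 with a term for blocks of running numbers. Proteasome subunits had 0 of 37 and the citric acid cycle 0 of 16.

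Genes of antigen presentation had 2 of 9 positive, and 2 were lower at an unadjusted p under 0.05 (22.2%, against 1.98%). They were H2-M3 (-0.24, p = 0.0182), above background on 3 of 10 R8 arrays, and the peptide transporter Tap2 (-0.23, p = 0.0415). Cholesterol synthesis, which supplies myelin, had 12 of 18 positive and a median of 0.04. It had 1 member higher (5.56%, against 2.57%), Dhcr7 (0.31, SE 0.133, p = 0.0285), the last enzyme of the pathway. Of 68 mitochondrial ribosomal proteins, 2 were higher (2.94%, against 2.57%) and 1 was lower (1.47%, against 1.98%). These shares are near those of genes outside the segment. The higher were Mrpl57 (0.19, p = 0.0129) and Mrpl51 (0.15, p = 0.0335), with -0.16 (p = 0.169) by another Mrpl51 probe. The lower was Mrpl38 (-0.13, p = 0.0272). Of 15 glucocorticoid targets, Mt2 was higher (6.67%, against 2.57%) and the kinase Pdk4 (-0.24, p = 0.0236) was lower (6.67%, against 1.98%). Excitatory neuron markers had 1 of 15 higher (6.67%, against 2.57%), Foxp2 (0.19, p = 0.0439). In all, 48 lists with 804 tested members were read. Of these, 25 had 0 members with an unadjusted p under 0.05, and 39 had a median between -0.05 and 0.05.

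**Figure D5:**
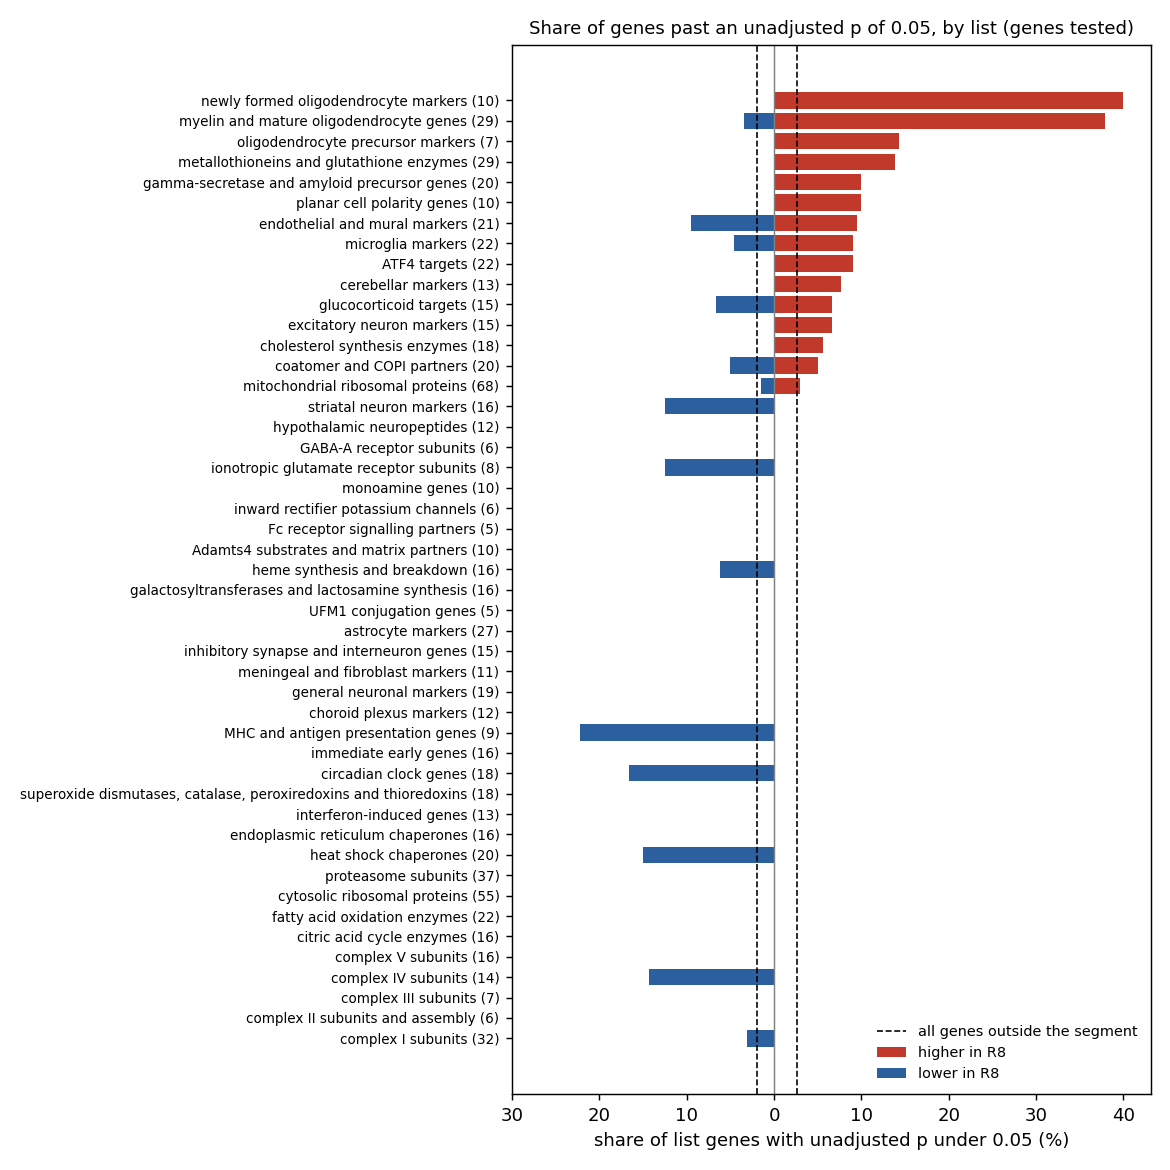
Share of the tested genes of each list (percent, with the number tested in parentheses) that were higher (red, to the right) or lower (blue, to the left) in R8 at an unadjusted p under 0.05. Dashed lines mark the same shares over all genes outside the segment, 2.57% higher and 1.98% lower. The newly formed (40%) and myelin (37.9%) lists reach furthest to the right. Without Enpp6 and Gpr17 the newly formed list has 25%, and without Tmem98 the myelin list has 35.7%. Lists were chosen with earlier results of these data known, so the reduced shares are not an independent check.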

How the data were processed

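Illumina Mouse Ref8 v2 arrays measured total RNA from whole brains of naïve males. The deposited signal table gives the bead intensity of each of 25697 probes, with no normalization by the authors, and the deposited detection p-value for each array. A second deposited table, used as an alternative, holds intensity values normalized by the authors. With limma 3.58.1 in R 4.3.3, the signals of the 20 arrays were processed by neqc (negative-control levels inferred from detection p-values, quantile normalization, log2 with offset 16). Probes detected (p under 0.01) on 10 or more arrays were fitted with lmFit and eBayes, without covariates. P-values measure the spread between animals of 1 line per strain. Of the probes, 23978 carry 1 gene name and 1719 none, and results of some genes are not reported here. A gene is represented by its tested probe with the highest mean signal. Named genes were all tested genes of the segment, the 20 with the smallest p outside it, and list members by smallest p. Members and lists were chosen with earlier results of these data known. Promoter sequences are RefSeq's (GRCm38.p6), and probe sequences come from the study's tables. The fit was tested on simulated data. Alternatives changed the background correction, normalization, filter, test, weights, blocks and arrays, and blocks of neighbouring table columns were added after seeing the data. The labels do not say that numbers shared by R8 and B6 arrays pair animals, and the main fit did not pair them.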

Additional observations from a re-analysis of the deposited data

Results flagged for a closer look

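Of 188 sets of 10 values, 18 held an array far from the rest of its strain by Dixon's criterion, which chance alone meets in about 1 set in 20. Within the segment, Fcer1g read 5.58 in R8 replicate 1, below the other R8 arrays, all of them under background. The same animal was low in B4galt3 (11.78), still above every B6 array, and in the second probe of Dedd (7.58). Nos1ap read 10.39 in B6 replicate 6, where the nearest other B6 array read 9.83. Arhgap30 read 7.76 in R8 replicate 3 and Pex19 12.35 in R8 replicate 10.

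Outside the segment, Nid1 read 8.54 in B6 replicate 10, Dnajb1 13.47 in B6 replicate 8, Opalin 12.19 in B6 replicate 4 and Ndufa10 13.48 in R8 replicate 8. Among list means, R8 replicate 10 was low in complex IV (-0.20) and complex I (-0.13) and high in general neuronal markers (0.11), and B6 replicate 3 was low in complex I (-0.0847). R8 replicate 9 was low in fatty acid oxidation (-0.0784) and high in microglia markers (0.16). R8 replicate 6 was low in immediate early genes (-0.33), and B6 replicate 7 was high in metallothioneins and glutathione enzymes (0.0841).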

How the results depend on the processing

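The 9 genes of the segment were called under most settings, and the exceptions follow. Counts of called probes ran from 8 to 11 over the other settings and from 9 to 12 when single arrays were left out. Sdhc lost its call with a term for blocks of 8 running numbers (0.36, adjusted p = 0.319) and with a replicate block by title number (adjusted p = 0.294). Ufc1 lost it with the replicate block by title number (adjusted p = 0.0905) and by description number (adjusted p = 0.123). The labels do not say that the numbers pair animals. Correlations of same-numbered arrays ran from -0.33 to 0.26 by title and from -0.22 to 0.20 by description, which cannot exclude a pairing. The blocks moved the called probes to 8 each. Leaving out any 1 array kept the calls of Sdhc and Ufc1, and Usp21 was called in 4 of 20 such fits.

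Probes at an unadjusted p under 0.01 numbered 121, but 254 with no detection filter and 95 to 158 without single arrays, and their split of 71 higher and 50 lower became 53 and 52 with median scaling. Outside the segment the 75 genes became 57 to 110 without single arrays. The methods' t-test gave 116 probes at the study's threshold and 9 after Benjamini-Hochberg. Differences near 0 turned their sign: Nos1ap was 0.0924 with blocks of running numbers and -0.0983 to 0.0244 without single arrays, and Dedd was -0.00212 with blocks of table columns, -0.00223 with median scaling and -0.0213 to 0.0237 without single arrays. The replicate block by title number also left 2 of the newly formed oligodendrocyte genes past an unadjusted p of 0.05. Where all arrays of a strain were at background, as for Fcer1g in R8, signal over background sets the limit.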
